A study of Homo sapiens with 8 samples.

Results

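The genes described here encode the proteins of the cytosolic ribosome and some paralogs of them. They were chosen by symbol, as protein-coding genes of the RefSeq annotation of GRCh38 whose names are RPL or RPS followed by a number and an optional suffix, or RPLP0 to RPLP2. This gave 85 genes of 20037 protein-coding genes, of which 52 belong to the large subunit and 33 to the small subunit by name. Among the 85 are 9 paralog and Y-linked symbols, such as RPL3L. The pattern does not reach some others, such as RPSA, FAU and RPL36AL, which are given separately. A gene was counted as having a peak when a peak overlapped a window of 1000 bp to each side of a gene end.

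The peaks are those of the CCAAT-binding factor NF-Y, a trimer of NFYA, NFYB and NFYC, mapped by CUT&RUN, in which a nuclease held at the bound protein by an antibody releases the surrounding DNA for sequencing. All cells were established rhabdomyosarcoma lines labelled PAX3-FOXO1+. Uninfected RH4 cells gave 1 library with an NFYB antibody and 1 with an NFYC antibody. RH30 cells engineered to carry a rapamycin-inducible cytosine base editor received a guide RNA, blasticidin and rapamycin, and were collected on day 8 as 1 NFYB library for each of the guides sgCtrl1, sgCtrl2, sgCCAAT2a and sgCCAAT2b. The last pair target a CCAAT motif in the PAX3 promoter, and their libraries are called edited. For the libraries with RH30 in their title the labels give RH4 as the source and line, and the title was followed. The 2 IgG libraries were not analysed here. Each list comes from 1 library, so there is no replicate, no test between libraries was made, and the exact Clopper-Pearson 95% intervals given cover only the counting of genes.

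A cytosolic ribosome holds 1 copy of nearly every ribosomal protein, and cells make these proteins in balance. Most of the genes for them are active in every growing cell. Their promoters are known for a start site in a pyrimidine-rich stretch and for ETS, YY1 and GC-box motifs near it. NF-Y binds the CCAAT box, usually a short way upstream of the start, in many promoters of growth and cell cycle genes. Of the 85 genes, 26 had a peak in at least 1 list and 59 had none. A peak in all 6 lists was found for 8 genes, among them RPLP0, RPL13, RPL13A, RPL3L, RPS2 and RPS24.

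The promoters of 4 of these genes, and of RPLP1 and RPL9 with a peak in 5 lists, are shown because they hold the motif that NF-Y binds under the most regularly found peaks. Each sequence runs 5′ to 3′ toward the gene and ends at the base before the annotated start, taken from RefSeq on GRCh38.p14. Capitals mark CCAAT, or ATTGG where the motif lies on the other strand. The RPL9 sequence is shorter because the divergent gene LIAS starts there.
RPLP0: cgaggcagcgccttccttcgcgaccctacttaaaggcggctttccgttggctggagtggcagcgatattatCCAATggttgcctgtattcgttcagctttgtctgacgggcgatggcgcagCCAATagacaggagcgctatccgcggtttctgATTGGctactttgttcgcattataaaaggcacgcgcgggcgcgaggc
RPL13A: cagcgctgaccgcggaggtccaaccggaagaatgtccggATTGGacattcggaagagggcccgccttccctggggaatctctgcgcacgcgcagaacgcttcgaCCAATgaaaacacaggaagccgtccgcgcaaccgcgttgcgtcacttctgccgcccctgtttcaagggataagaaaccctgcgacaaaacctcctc
RPL13: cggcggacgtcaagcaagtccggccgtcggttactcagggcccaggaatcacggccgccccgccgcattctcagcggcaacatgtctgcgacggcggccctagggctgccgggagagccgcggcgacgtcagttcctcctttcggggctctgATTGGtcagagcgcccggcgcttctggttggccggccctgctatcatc
RPS24: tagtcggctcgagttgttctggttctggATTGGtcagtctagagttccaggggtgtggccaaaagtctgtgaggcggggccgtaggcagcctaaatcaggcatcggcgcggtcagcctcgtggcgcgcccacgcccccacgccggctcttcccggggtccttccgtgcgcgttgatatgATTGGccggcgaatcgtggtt
RPLP1: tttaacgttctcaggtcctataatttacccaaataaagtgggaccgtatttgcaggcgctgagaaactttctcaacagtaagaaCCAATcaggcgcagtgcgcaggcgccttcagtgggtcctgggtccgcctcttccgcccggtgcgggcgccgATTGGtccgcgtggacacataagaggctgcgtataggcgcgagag
RPL9: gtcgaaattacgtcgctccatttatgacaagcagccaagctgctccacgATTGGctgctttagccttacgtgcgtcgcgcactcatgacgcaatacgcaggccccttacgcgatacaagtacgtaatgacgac
The stretches are chr12:120201112-120201311 on the minus strand for RPLP0, chr19:49487408-49487607 on the plus strand for RPL13A and chr16:89560457-89560656 on the plus strand for RPL13. Those of RPS24 and RPLP1 are chr10:78033663-78033862 and chr15:69452618-69452817, both on the plus strand, and that of RPL9 is chr4:39458923-39459055 on the minus strand. RPLP0 held 3 motifs in this stretch, RPL13A, RPS24 and RPLP1 held 2 each, and RPL13 and RPL9 held 1.

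The share of ribosomal protein genes with a peak did not stand apart from that of other genes in any list. In the RH4 NFYB list 19 of 85 genes, or 22.4% (14.0 to 32.7%), had one, beside 15.0% of all protein-coding genes. In the RH4 NFYC list 16 genes had one, or 18.8% (11.2 to 28.8%), beside 15.3%. The sgCtrl1 and sgCtrl2 lists also gave 16 genes each, or 18.8% (11.2 to 28.8%), beside 12.6% and 16.8% of all genes. The sgCCAAT2a and sgCCAAT2b lists gave 11 genes each, or 12.9% (6.64 to 22.0%), beside 8.9% and 9.27%. For every list the interval held the share of all genes. A peak in at least 1 list was found for 30.6% (21.0 to 41.5%) of the ribosomal protein genes and 21.7% of all genes, and a peak in all 6 lists for 9.41% (4.15 to 17.7%) and 7.03%.

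The lists differ in size and origin. The RH4 lists hold 3243 and 3760 peaks, and their depth is unknown. The RH30 lists hold 4025, 6687, 2451 and 2558 peaks for sgCtrl1, sgCtrl2, sgCCAAT2a and sgCCAAT2b, from 13.9, 10.5, 21.2 and 28.2 M tags. The control lists were thus longer at lower depth, with 2.40% and 3.10% of tags in peaks against 1.22% and 1.46% in the edited libraries. The part of list size, depth and tag share in the counts was not tested.

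By subunit, large subunit genes had a peak in 12, 10, 12, 11, 8 and 8 of 52 cases in RH4 NFYB, RH4 NFYC, sgCtrl1, sgCtrl2, sgCCAAT2a and sgCCAAT2b. Small subunit genes had one in 7, 6, 4, 5, 3 and 3 of 33. In RH4 NFYB these counts are 23.1% (12.5 to 36.8%) and 21.2% (8.98 to 38.9%), beside 15.0% of all genes. In sgCtrl1 they are 23.1% (12.5 to 36.8%) and 12.1% (3.4 to 28.2%), beside 12.6%. At least 1 list held 17 large subunit genes, or 32.7% (20.3 to 47.1%), and 9 small subunit genes, or 27.3% (13.3 to 45.5%), beside 21.7%. All 6 lists held 5 and 3 of them, or 9.62% and 9.09%, beside 7.03%. The large subunit share was the higher in each of the 6 lists, and the intervals of the subunits overlapped in each. The lists hold many of the same genes, and the large subunit count includes RPL3L in every list.

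**Figure D1:**
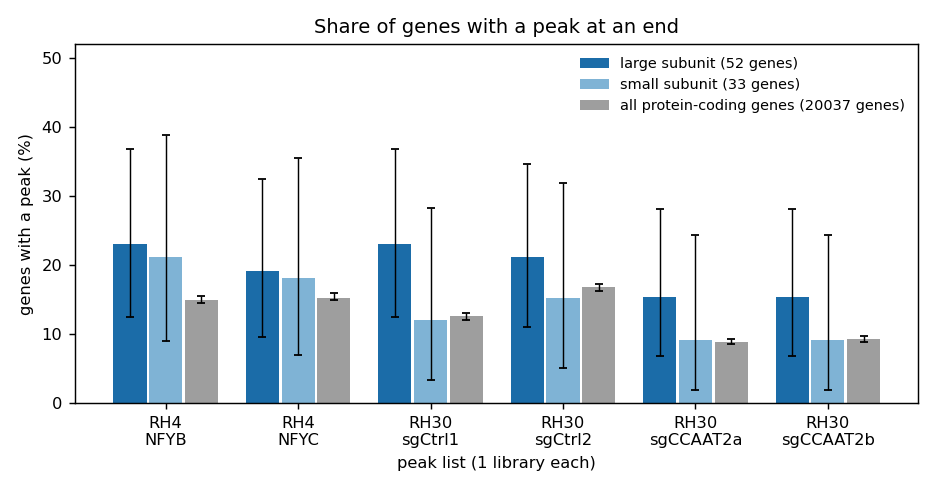
The vertical axis is the percent of genes with a peak within 1000 bp of an end and the horizontal axis the 6 peak lists, 1 library each, with bars for 52 large subunit genes, 33 small subunit genes and 20037 protein-coding genes. Error bars are exact 95% intervals over genes; in sgCtrl1 the bars stand at 23.1%, 12.1% and 12.6%, and the error bars of both subunits span the bar of all genes in every list.

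Among the 26 genes, 8 had a peak in 6 lists, 2 in 5, 1 in 4, 2 in 3, 8 in 2 and 5 in 1. Both lines held 13 of them, 6 were in RH4 lists alone and 7 in RH30 lists alone. As shares of the 85 genes these are 15.3% (8.4 to 24.7%), 7.06% (2.63 to 14.7%) and 8.24% (3.38 to 16.2%), beside 13.6%, 3.31% and 4.83% of all protein-coding genes. The ribosomal protein genes in both RH4 lists were 16 of the 16 in the NFYC list and 16 of the 19 in the NFYB list, or 84.2%, beside 87.9% and 89.7% over all genes. RPL18, RPL35A and RPS19 were in the NFYB list alone of the RH4 lists.

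**Figure D2:**
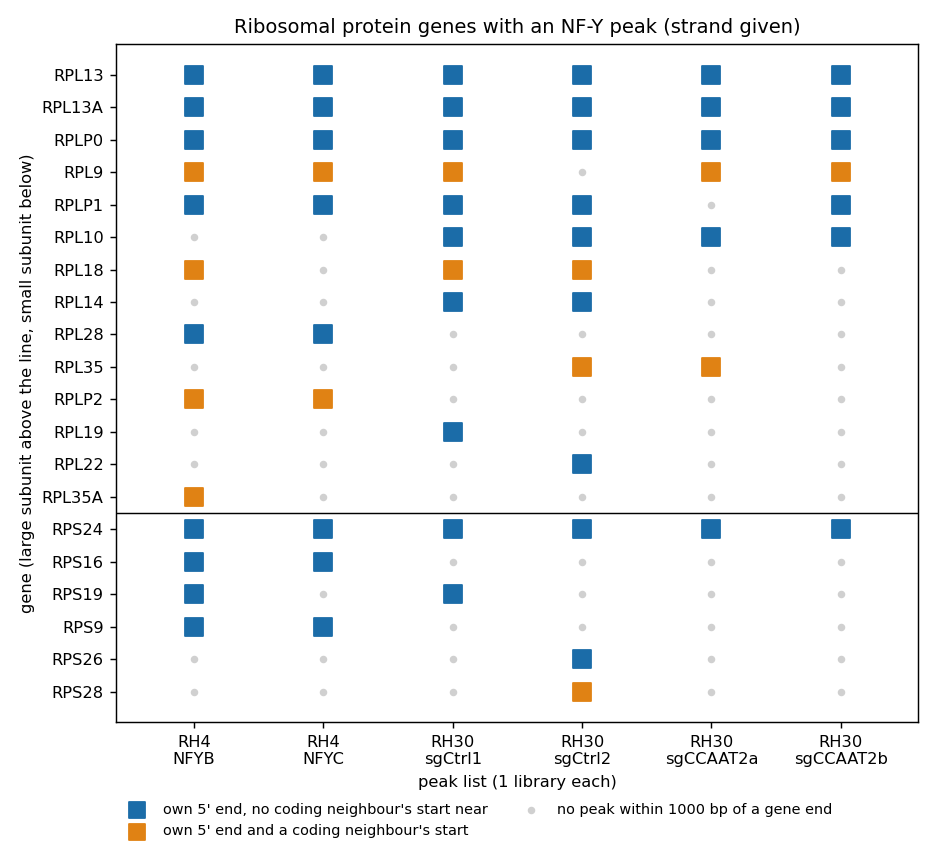
Rows are the 20 ribosomal protein genes with a given strand and a peak in at least 1 list, 14 of the large subunit above the line and 6 of the small subunit below it, and columns are the 6 peak lists. Coloured squares mark a peak at the own 5' end of the gene, blue with no coding neighbour's start near (14 genes) and orange where the start of a coding neighbour lies within 1000 bp of the peak (6 genes).

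Where on the gene the peak lies could be read for the 68 genes whose strand the promoter table gives. Of these, 20 had a peak in at least 1 list, and all 20 had it within 1000 bp of their own 5' end. None of these 20 had a peak at the 3' end alone. The other 6 of the 26 genes with a peak, 4 of them in all 6 lists, had no strand given and were not placed. Among them is RPL3L, whose peaks lay nearer the start of MSRB1 than an end of RPL3L. Over all 15843 genes with a strand, 95.3% of those with a peak had one at the own 5' end. Peaks at the own 5' end were found for 13, 10, 11, 12, 7 and 7 of the 68 genes in RH4 NFYB, RH4 NFYC, sgCtrl1, sgCtrl2, sgCCAAT2a and sgCCAAT2b. These are 19.1%, 14.7%, 16.2%, 17.6%, 10.3% and 10.3%, beside 15.4%, 15.9%, 13.1%, 17.1%, 9.39% and 9.73% of all genes with a strand. The RH4 NFYB count is 19.1% (10.6 to 30.5%) and the sgCCAAT2a count 10.3% (4.24 to 20.1%). The 20 genes, 29.4% (19.0 to 41.7%) of 68 beside 22.1% of all genes, were 14 of 42 large subunit genes and 6 of 26 small subunit genes. RPL13, RPL13A, RPLP0 and RPS24 had the peak at their own 5' end in all 6 lists, 5.88% (1.63 to 14.4%) beside 7.46% of all genes.

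Most of the peaks stood upstream of the start. Of 61 peaks at an own 5' end, 57 had their centre upstream of it, and 51 of these lay within 250 bp. Upstream centres made up 13 of 13, 11 of 11, 10 of 11, 11 of 12, 6 of 7 and 6 of 7 peaks in RH4 NFYB, RH4 NFYC, sgCtrl1, sgCtrl2, sgCCAAT2a and sgCCAAT2b, beside 76.8%, 80.5%, 81.3%, 75.0%, 84.9% and 85.3% over all genes, so a place upstream is also the usual one for other genes. The median centre was 131.5, 101.5, 115, 80, 85 and 75 bp upstream in the same order. The medians over all genes with a peak were 91.8, 94.5, 94, 81, 96.5 and 96 bp upstream in the same order. The 4 peaks downstream of the annotated start all belonged to RPL10.

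Of the genes of the ribosomal stalk, RPLP0 had a peak in 6 lists, RPLP1 in 5 and RPLP2 in 2. RPLP0, RPLP1 and RPLP2 form the acidic stalk of the large subunit, where translation factors are recruited. The RPLP0 gene lies at chr12:120196699-120201111, and its peak centres were 67, 101.5, 83, 33, 80 and 75 bp upstream in RH4 NFYB, RH4 NFYC, sgCtrl1, sgCtrl2, sgCCAAT2a and sgCCAAT2b. The sgCtrl2 peak spans chr12:120201046-120201242. Every RPLP0 peak spanned all 3 CCAAT motifs, which lie 127, 77 and 45 bp upstream, and the centres were 2 to 24.5 bp from the nearest of them. The noncoding gene PXN-AS1 starts at position 120201291 on this chromosome, so the same peaks also lie near its start.

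RPLP1, at chr15:69452818-69456205, had a peak in every list but sgCCAAT2a. Its centres were 150.5, 89.5, 54, 92 and 61 bp upstream in RH4 NFYB, RH4 NFYC, sgCtrl1, sgCtrl2 and sgCCAAT2b. Each of these peaks spanned both motifs, at 114 and 43 bp upstream. RPLP2, at chr11:809967-812876, had a peak in the RH4 lists alone, centred 225 bp upstream with NFYB and split in 2 with NFYC, at 279 and 106 bp upstream. Its motif lies 108 bp upstream, and the start of PIDD1, a death domain protein, is 466 bp from that of RPLP2.

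Outside the stalk, RPL13A, RPL13 and RPL3L were among the large subunit genes with a peak in all 6 lists. RPL13A, also known for a role in silencing inflammatory mRNAs outside the ribosome, lies at chr19:49487608-49492308. Its centres were 134, 136.5, 128, 103, 100 and 122 bp upstream in RH4 NFYB, RH4 NFYC, sgCtrl1, sgCtrl2, sgCCAAT2a and sgCCAAT2b, between its motifs at 159 and 94 bp. All 6 peaks spanned both motifs. RPL13, at chr16:89560657-89566829, had centres 61.5, 35, 33, 34, 63 and 55 bp upstream in the same order, and its motif at 46 bp was 9 to 17 bp from every centre.

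**Figure D3:**
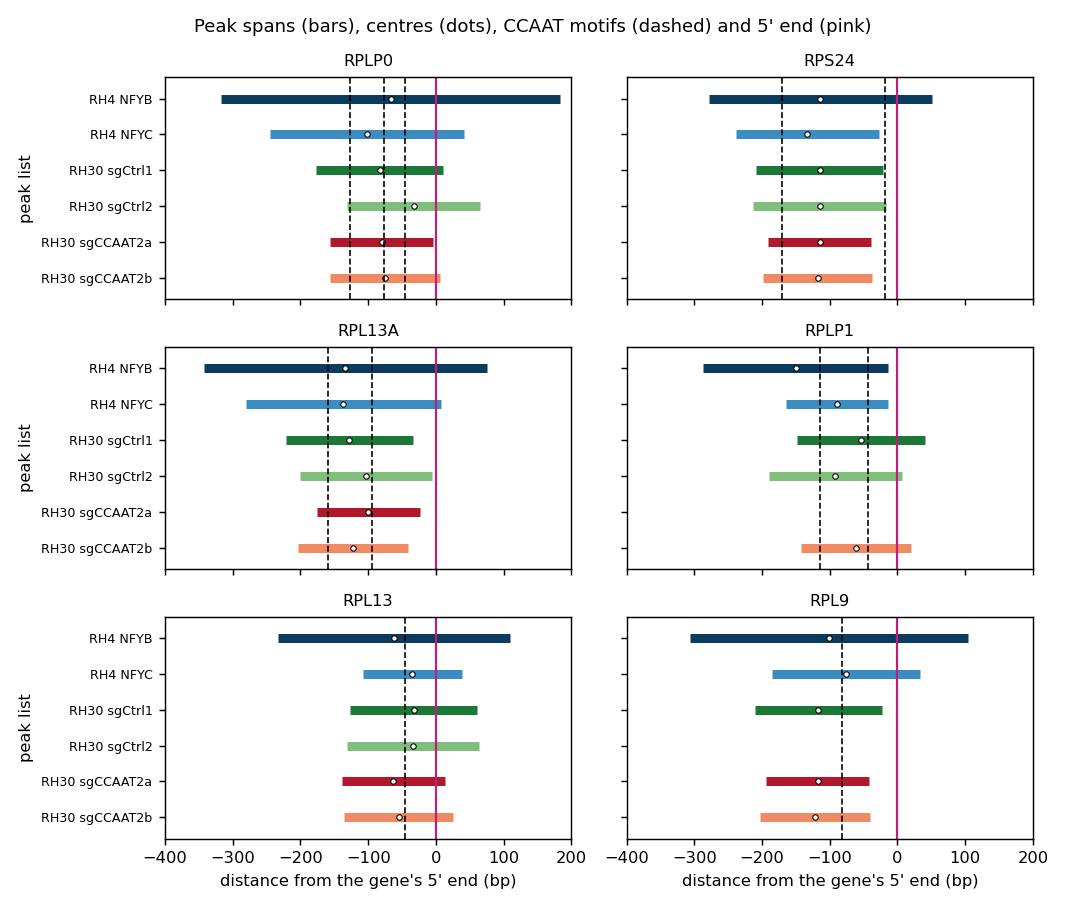
Each panel shows a gene with a peak at its own 5' end in at least 5 lists and a CCAAT motif; the horizontal axis is the distance from the 5' end in bp, negative upstream, and rows are the 6 peak lists. Bars are peak spans, dots their centres, dashed lines CCAAT motifs within the promoter window and the pink line the 5' end; every RPLP0 bar covers the motifs at 127, 77 and 45 bp upstream, and RPL9 and RPLP1 each lack the bar of 1 list.

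RPL9 had a peak in every list but sgCtrl2. RPL9, a protein at the base of the stalk, lies at chr4:39454124-39458922, and LIAS, the lipoic acid synthase, starts 134 bp away on the other strand. The centres were 101, 76.5, 117, 118 and 122 bp upstream of RPL9 in RH4 NFYB, RH4 NFYC, sgCtrl1, sgCCAAT2a and sgCCAAT2b, and 33, 57.5, 17, 16 and 12 bp from the start of LIAS. Each peak was thus nearer to LIAS than to RPL9. The CCAAT motif lies 82 bp upstream of RPL9, between both starts, and was 5.5 to 40 bp from the centres.

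RPL10, which joins the large subunit late in its maturation, had a peak in all 4 RH30 lists and in neither RH4 list. The gene lies at chrX:154398065-154402339, and the centres were 161, 170, 160 and 121 bp downstream of that start in sgCtrl1, sgCtrl2, sgCCAAT2a and sgCCAAT2b. A further start of RPL10 in the promoter table lies at 154398377, and the same centres were 151, 142, 152 and 191 bp upstream of it. None of the 3 listed RPL10 promoters held CCAAT.

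The other large subunit genes were found in fewer lists. RPL18 had a peak in RH4 NFYB, sgCtrl1 and sgCtrl2, centred 168.5, 202 and 199 bp upstream, and 159.5, 126 and 129 bp from the start of SPHK2, a sphingosine kinase. RPL23A, at the exit of the peptide tunnel, had peaks 166.5, 100 and 104 bp outside its lower end in RH4 NFYB, RH4 NFYC and sgCtrl1. RPL14 had a peak in both controls and in no other list, 65 and 77 bp upstream, with its motif at 82 bp. RPL28 had peaks 329.5 and 345 bp upstream in RH4 NFYB and NFYC.

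RPL35, also at the tunnel exit, had peaks in sgCtrl2 and sgCCAAT2a, 83 and 85 bp upstream and 90 and 88 bp from the start of ARPC5L, an Arp2/3 complex protein. The motif of RPL35 lies 55 bp upstream and was 28 and 30 bp from these centres. A single list held RPL19 (sgCtrl1, 271 bp upstream), RPL22 (sgCtrl2, 41 bp upstream) and RPL35A (RH4 NFYB, 131.5 bp upstream and 133.5 bp from a start of DRC9).

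Of the small subunit genes, RPS24 was the one with both a peak in all 6 lists and a given strand. RPS24, a protein mutated in some families with Diamond-Blackfan anaemia, lies at chr10:78033863-78056806. Its centres were 114, 133, 115, 115, 115 and 118 bp upstream in RH4 NFYB, RH4 NFYC, sgCtrl1, sgCtrl2, sgCCAAT2a and sgCCAAT2b. The motifs lie 170 and 19 bp upstream, and the centres stood between them, 37 to 56 bp from the nearer. All 6 peaks spanned at least 1 of these motifs.

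RPS2 also had a peak in all 6 lists. RPS2, near the channel where mRNA enters, lies at chr16:1962058-1964826, and its centres were 118, 110, 104, 168, 104 and 123 bp outside its higher end in RH4 NFYB, RH4 NFYC, sgCtrl1, sgCtrl2, sgCCAAT2a and sgCCAAT2b. The noncoding genes SNHG9 and SNORA78 also have an end within 1000 bp of these peaks. Its strand was not given.

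Other small subunit genes were in 1 or 2 lists. RPS9 and RPS16 were in both RH4 lists and no RH30 list, with RPS9 centres 101 and 86 bp upstream and RPS16 centres 46.5 and 67 bp upstream. RPS19, the gene most often mutated in Diamond-Blackfan anaemia, was in RH4 NFYB and sgCtrl1 at 244.5 and 532 bp upstream, where the 2 peaks do not overlap. RPS26 and RPS28 were in sgCtrl2 alone, 277 and 42 bp upstream.

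Of the 9 paralog and Y-linked symbols, RPL3L alone had a peak, and that peak lay nearer the start of a neighbour than an end of RPL3L. RPL3L encodes the form of RPL3 made in heart and skeletal muscle. The gene lies at chr16:1943974-1954689, and the peak centres were 594.5, 622, 622, 660, 689 and 660 bp outside its lower end in RH4 NFYB, RH4 NFYC, sgCtrl1, sgCtrl2, sgCCAAT2a and sgCCAAT2b. They were 180.5, 153, 153, 115, 86 and 115 bp from the start of MSRB1, a methionine sulfoxide reductase on the minus strand. The promoter of MSRB1 held 3 CCAAT motifs, of which 2 or 3 lay inside each peak. The 200 bases before its start, chr16:1943200-1943399, are shown because they are the sequence under the peak counted for RPL3L.
MSRB1: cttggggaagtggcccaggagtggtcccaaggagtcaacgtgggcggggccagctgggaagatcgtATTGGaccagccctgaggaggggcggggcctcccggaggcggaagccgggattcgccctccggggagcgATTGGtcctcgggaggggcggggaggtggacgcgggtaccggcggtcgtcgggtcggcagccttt
Capitals mark CCAAT or ATTGG, and 2 of the 3 motifs fall in this stretch. The strand of RPL3L was not given, so its own start was not placed.

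Peaks shared with a coding neighbour were found for 6 of the 20 genes with a peak at the own 5' end. Over all genes, 990 of the 3499 with such a peak had a coding neighbour's 5' end within 1000 bp of their own. The 6 ribosomal protein genes are RPL9 with LIAS, RPL18 with SPHK2, RPL35 with ARPC5L, RPL35A with DRC9, RPLP2 with PIDD1, and RPS28 with NDUFA7, a subunit of respiratory complex I. The starts in each pair were 134, 328, 173, 265, 466 and 121 bp apart. The pairs took in 5 of the 14 large subunit genes with a peak at the own 5' end and 1 of the 6 small subunit genes. Of 68 genes with a strand, 17 had the 5' end of a coding neighbour within 1000 bp of their own, and 6 of these, or 35.3% (14.2 to 61.7%), had a peak. Of the other 51, 14 had a peak, or 27.5% (15.9 to 41.7%). For all genes the shares were 38.6% (36.7 to 40.5%) of 2565 and 18.9% (18.2 to 19.6%) of 13278. The intervals of both ribosomal groups overlapped, and RPL4, RPL12, RPS18 and RPS27A are among the 11 paired genes without a peak.

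The CCAAT motif was not common in these promoters but went with the peaks. CCAAT was searched on both strands from 250 bp before to 50 bp after the start, in the 68 genes with a RefSeq promoter. It was present in 22 of 68 promoters, or 32.4% (21.5 to 44.8%), beside 36.4% of 15843 promoters. Of the 20 genes with a peak, 13 held it, or 65.0% (40.8 to 84.6%), beside 66.2% of all genes with a peak. Of the 48 without a peak, 9 held it, or 18.8% (8.95 to 32.6%), beside 27.9% of all genes without a peak. All 4 genes with a peak at the own 5' end in all 6 lists held it, beside 87.1% of such genes overall. By subunit, 18 of 42 large subunit promoters, or 42.9% (27.7 to 59.0%), and 4 of 26 small subunit promoters, or 15.4% (4.36 to 34.9%), held the motif.

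In the genes with a peak, most motifs sat close to the start and under the peak. The 13 promoters held 19 motifs, 19 to 245 bp upstream with a median of 82 bp. Of the 47 peaks at these 13 promoters, 46 spanned at least 1 motif and 37 had their centre within 50 bp of one. These promoters were picked for holding the motif, and spanning was not counted over all genes. Counting centres inside the promoter window, the median distance to the nearest motif was 23, 16.8, 17, 17, 23.5 and 23 bp in RH4 NFYB, RH4 NFYC, sgCtrl1, sgCtrl2, sgCCAAT2a and sgCCAAT2b. The medians over all genes were 21, 18, 20, 27, 15 and 12 bp. Of the ribosomal protein centres measured, 6 of 8, 8 of 8, 6 of 7, 6 of 8, 5 of 6 and 5 of 6 lay within 50 bp of a motif. Over all genes the shares were 78.5%, 87.3%, 81.0%, 74.2%, 83.9% and 89.0% in the same order, so a centre this close is also usual for other genes. RPL10, RPL18, RPL35A, RPS16, RPS19, RPS26 and RPS28 had a peak and no CCAAT in the window. RPL10 was in 4 lists, RPL18 in 3 and the other five in 1 or 2. The windows of SPHK2 and NDUFA7, and that of DRC9, which the peaks of RPL18, RPS28 and RPL35A also overlap, held no CCAAT either.

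The reverse case was also seen, a motif with no peak. CCAAT was present in RPL10L, RPL17, RPL24, RPL32, RPL34, RPL38, RPL41, RPS4X and RPS27A, and none of these had a peak within 1000 bp of an end. Their 11 motifs lay between 41 bp after and 248 bp before the start, with a median of 135 bp upstream. RPL41 encodes the shortest ribosomal protein, and its promoter is shown because its motif 96 bp upstream lies where the bound promoters carry theirs.
RPL41: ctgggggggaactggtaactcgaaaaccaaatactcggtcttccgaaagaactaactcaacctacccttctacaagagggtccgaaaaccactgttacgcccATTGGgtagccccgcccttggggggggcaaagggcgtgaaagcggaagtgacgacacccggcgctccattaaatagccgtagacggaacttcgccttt
This stretch is chr12:56116433-56116632 on the plus strand, with ATTGG in capitals. Another motif of RPL41 lies further out, at 248 bp. The nearest peak of any list was 11.4 kb from its start, against 9.49 kb for RPL24 with a motif at 65 bp and 9.86 kb for RPL38 with a motif at 100 bp.

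Other motifs known from these promoters were searched in the same window, on both strands. The ETS motif CCGGAAG was in 33.8% (22.8 to 46.3%) of the 68 promoters, beside 14.2% of all promoters. It was in 4 of 20 genes with a peak, or 20.0% (5.73 to 43.7%), and in 19 of 48 without, or 39.6% (25.8 to 54.7%). The intervals of these 20 and 48 genes overlapped. For all genes the order was the other way round, 19.2% (17.9 to 20.6%) with a peak and 12.7% (12.1 to 13.3%) without. The YY1 motif AAGATGGC was in 10.3% (4.24 to 20.1%) beside 3.86%. The GC box GGGCGG was in 51.5% (39.0 to 63.8%) beside 58.3%, and the TATA box TATAAA in 10.3% (4.24 to 20.1%) beside 9.75%. The letters of the ETS motif do not allow it to share a base with CCAAT on either strand. In the 68 promoters no match of the YY1 motif, GC box or TATA box shared a base with a CCAAT match. Over all promoters the GC box did so in 91, the TATA box in 11 and the YY1 motif in 0. The median GC content was 59.0% for the ribosomal protein promoters and 62.7% for all, and 60.3% and 58.5% for those with and without a peak.

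**Figure D4:**
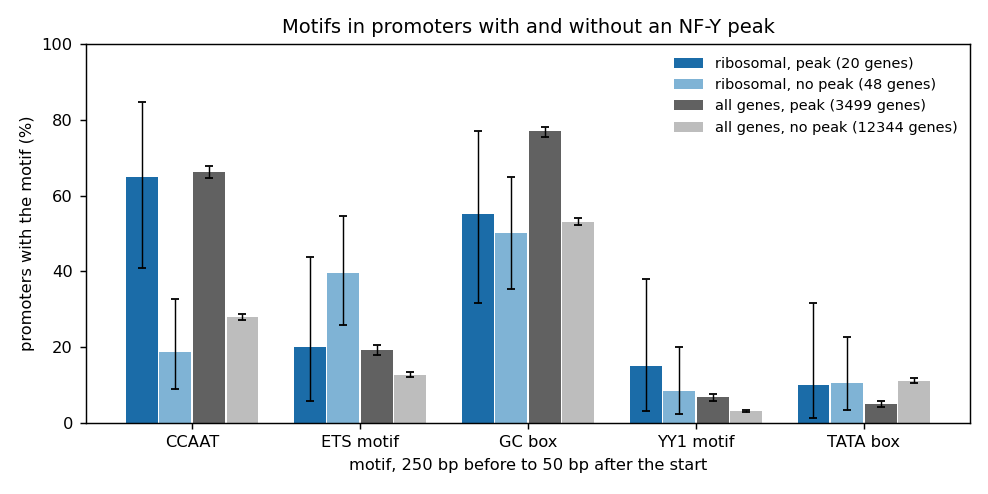
Bars give the percent of promoters, from 250 bp before to 50 bp after the start, with each motif on either strand, for ribosomal protein genes with (20) and without (48) a peak at the own 5' end and for all genes with (3499) and without (12344) one. Error bars are exact 95% intervals over genes. CCAAT stands at 65.0% and 18.8% in the ribosomal groups, and the ETS motif at 20.0% and 39.6% with overlapping error bars.

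Genes of chromosome 19 made up much of the set with a peak. The chromosome holds 12 of the 85 genes, and 10 of them, or 83.3% (51.6 to 97.9%), had a peak in at least 1 list, beside 36.4% of all 1451 genes of that chromosome. On the other chromosomes 16 of 73, or 21.9% (13.1 to 33.1%), had one, beside 20.6%. In RH4 NFYB the chromosome 19 count was 9 of 12, or 75.0% (42.8 to 94.5%), beside 27.9%. In RH4 NFYC it was 58.3% (27.7 to 84.8%) beside 29.4%. The sgCtrl1 and sgCtrl2 lists each gave 41.7% (15.2 to 72.3%), beside 22.6% and 27.7%. The sgCCAAT2a and sgCCAAT2b lists each gave 3 of 12, or 25.0% (5.49 to 57.2%), beside 16.4% and 17.2%. RH4 NFYB was the only list whose interval did not hold the share of all genes of the chromosome. Among the 10 genes were RPL13A, RPL18, RPL28, RPS9, RPS16, RPS19 and RPS28, and RPL36 and RPS15 had no peak. Chromosome 19 was looked at after the positions of the bound genes had been seen.

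The question the RH30 libraries address is what the guides against the PAX3 CCAAT motif do to NF-Y binding. Both control lists held 12 ribosomal protein genes, or 14.1% (7.51 to 23.4%), beside 11.3% of all genes. Of these 12, 9 were also in both edited lists, or 75.0% (42.8 to 94.5%), RPLP1 was in 1, and RPL14 and RPL18 were in neither. For the 2259 genes in both control lists, 66.3% (64.3 to 68.2%) were in both edited lists and 21.6% (20.0 to 23.4%) in neither, and the interval of the ribosomal protein genes holds the share of all genes. Both edited lists held 10 ribosomal protein genes, or 11.8% (5.79 to 20.6%), beside 8.12% of all genes. Of the 12 ribosomal protein genes with a peak in an edited list, 0 lacked one in both controls, beside 58 of 2013 genes, or 2.88%, over all genes, so this count says nothing particular about them. Controls and edited libraries have 1 library for each guide, so guide and library cannot be told apart.

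In the authors' deposited tables an sgCtrl2 peak is listed when it had 2.5-fold more tags than in another library, at a Poisson p of 0.001. Of the 16 sgCtrl2 peaks at ribosomal protein genes, the authors' deposited table over sgCtrl1 lists 1, that of RPL22. For sgCCAAT2a and sgCCAAT2b, the authors' deposited tables list 7 and 6 of the 16, or 43.8% and 37.5%. Over all sgCtrl2 peaks at gene ends the shares in the authors' deposited tables were 11.8%, 57.0% and 51.1%. The peaks of RPLP0, RPL13A, RPL3L, RPS2 and RPS24 are in none of the authors' deposited tables, and that of RPL13 is in the table over sgCCAAT2a alone. The 3 tables share the sgCtrl2 library.

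Peak width was the remaining measure in the RH4 files. Ribosomal protein peaks had a median width of 331 bp in RH4 NFYB and 202 bp in RH4 NFYC, beside 411 and 190.5 bp for all peaks. Among the widest 50% of the RH4 NFYB peaks, 5 of the 19 ribosomal protein genes were kept, or 26.3%, beside 54.6% of all genes with a peak. In RH4 NFYC the shares were 62.5% and 59.3%, so the gap was in the NFYB list. In the RH30 lists the width is set by the caller and carries no information.

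Without a peak were 35 large subunit genes, among them RPL3, RPL4, RPL5, RPL6, RPL7A, RPL11, RPL12, RPL15, RPL21 and RPL27, and the paralogs RPL7L1, RPL10L, RPL22L1, RPL26L1 and RPL39L. RPL5 and RPL11 are the proteins that hold MDM2 when ribosome assembly is disturbed. Without a peak were also 24 small subunit genes, among them RPS3, RPS3A, RPS6, RPS7, RPS10, RPS12, RPS13, RPS14, RPS20 and RPS23. RPS6 is the protein phosphorylated downstream of mTOR. For these 59 genes the nearest peak of any list lay at a median of 41.9 kb from a gene end, and 5 had one within 3000 bp. The nearest to the limit of 1000 bp were RPL17 outside it, with a peak 1.25 kb away in sgCtrl2, and RPL3L inside it.

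Other genes of the ribosome were also counted. RPL36AL had a peak in all 6 lists, and RPSA and FAU had none in any. Of 32 genes of ribosome assembly and ribosomal RNA synthesis, 10, 12, 7, 6, 3 and 4 had a peak in RH4 NFYB, RH4 NFYC, sgCtrl1, sgCtrl2, sgCCAAT2a and sgCCAAT2b. These are 31.2%, 37.5%, 21.9%, 18.8%, 9.38% and 12.5%, beside 15.0%, 15.3%, 12.6%, 16.8%, 8.9% and 9.27% of all genes. In RH4 NFYB and RH4 NFYC the intervals began at 16.1% and 21.1%, above the share of all genes. In each RH30 list the interval held that share. At least 1 list held 14 of the 32 genes, or 43.8% (26.4 to 62.3%), beside 21.7% of all genes. NCL, the nucleolar protein nucleolin, and NOP2, a ribosomal RNA methyltransferase, had a peak in all 6 lists. These are 2 of the 32, or 6.25% (0.766 to 20.8%), beside 7.03% of all genes. POLR1A, the largest subunit of RNA polymerase I, had a peak in every list but sgCtrl2.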

How the data were processed

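The authors deposited peak lists as BED positions in bp on hg38, with no peak height: column 5 holds a constant 1. The RH30 lists were made 1 library at a time with the findPeaks program of HOMER, per the file headers, against an input directory and requiring 2-fold more tags than input and 4-fold more than the surrounding 10000 bp. The 3 differential tables also come from HOMER. For the RH4 lists, the sources used here give no caller; their entries carry a further set of coordinates as a name, and the hg38 columns were used. The submitters' processing notes name Bowtie2, MACS2, HOMER, bedtools, deepTools, Trimmomatic and FastQC without versions.

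Here gene ends came from the RefSeq table (GRCh38.p14), and strand and promoter sequence from the RefSeq promoter table, which matched 68 of the 85 genes by gene ID. The 17 others include RPS2, RPL3L and RPL23A. A peak was called shared when the start of another coding gene lay within 1000 bp of it. Genes with a peak are named, those in all 6 lists with every value, except for a few genes not reported here by name, which the counts include. The genes and lists were chosen with earlier results of these data known. The overlaps, computed in Python 3.11.15, were checked on simulated peaks against bedtools 2.31.1. Alternatives were windows of 250, 500 and 3000 bp, the peak centre in the window, the start sites of the promoter table, the 200 bp before the start, the widest (RH4) or first-listed (RH30) 50% of each list, the set without paralogs, and, chosen after seeing the data, fewer lists.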

Additional observations from a re-analysis of the deposited data

How the results depend on the processing

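Of 137 alternative values, 114 stayed within 1.5 times the reported count, or within the interval of the reported share, and 23 moved. Windows of 250, 500 and 3000 bp, the peak centre in the window, the start sites of the promoter table and the set without paralogs moved no count by more than this, and neither did leaving out the sgCtrl2 list, chosen after seeing the data (23 of 85 genes against 26).

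With the widest or first-listed 50% of each list, fewer peaks are available by construction. Genes with a peak then numbered 5, 10, 10, 14, 5 and 5 in RH4 NFYB, RH4 NFYC, sgCtrl1, sgCtrl2, sgCCAAT2a and sgCCAAT2b, or 26.3%, 62.5%, 62.5%, 87.5%, 45.5% and 45.5% of the reported counts, beside 54.6%, 59.3%, 73.5%, 84.2%, 63.0% and 64.5% over all genes. Large subunit genes numbered 4, 6, 4 and 4 in RH4 NFYB, RH4 NFYC, sgCCAAT2a and sgCCAAT2b. Small subunit genes numbered 1, 2, 3, 1 and 1 in RH4 NFYB, sgCtrl1, sgCtrl2, sgCCAAT2a and sgCCAAT2b. Genes with a peak at the own 5' end numbered 3, 6, 5, 3 and 2 in RH4 NFYB, RH4 NFYC, sgCtrl1, sgCCAAT2a and sgCCAAT2b. All 6 lists held 3 genes, and both controls with both edited lists held 4.

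The share with CCAAT was 85.7% (42.1 to 99.6%), or 6 of 7, in genes with a peak at the own 5' end in at least 4 lists. In the other genes it was then 26.2%. When only the 200 bp before the start were searched, it was 60% in genes with a peak and 8.33% in genes without. No paired analysis was possible because every group has 1 library. Heights were not used here, and depth is unknown for RH4, so a gene without a peak may hold binding below the callers' limits.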

Other observations

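The window of 3000 bp added RPL8, RPL7L1, RPL17, RPL29 and RPL38, whose nearest peaks lay 2.37, 2.41, 1.25, 2.27 and 2.88 kb from a gene end. RPL38 and RPL17 also held CCAAT in the promoter window, RPL17 41 bp after its start. Their added peaks lay near the 3' end, and the nearest peaks to their 5' ends were 9.86 and 5.24 kb away. Except for RPL29, whose nearest peak was in sgCtrl1, the nearest peaks of the added genes came from the sgCtrl2 list, the longest of the 6.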
